A study of Mus musculus with 20 samples.

Results

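CD122+T-bet- and CD122-T-bet- intraepithelial lymphocyte precursors (IELPs) of the thymus were compared within the 4 C-myc fl/fl libraries that hold both populations. Wells were assigned to a population by the well description deposited with each library, and cells with at least 2000 transcripts, mitochondrial and spike-in transcripts aside, were kept. This left 242 of 384 wells, 122 with CD122+ and 120 with CD122- cells, out of 1413 cells that passed the same limit in the 20 libraries of the whole series. CD4- and CD8-depleted thymocytes that carried the TCRβ chain had been sorted by CD122 and by ZsGreen, a fluorescent reporter of T-bet, and each cell was read by CEL-Seq2, which counts transcripts at their 3′ end by molecular identifiers. The labels give the cells as C-myc fl/fl on the strain background TBGR, the ZsGreen reporter line, at an age of 2 weeks, without any treatment. The floxed C-myc alleles were intact in these mice, as no Cre was present, and both populations share them.

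All 4 libraries came from 1 plate and, by the design given with the series, from 1 mouse. Each held 48 wells of either population, so the library was the pair and p-values here measure the spread between libraries of 1 animal, which may be technical. The deposited design calls the sorted cells NK1.1+ and the methods of the study call them NK1.1-. The transcript of NK1.1, Klrb1c, was read 2 times in each population and does not settle this. A single comparison was drawn with the TBGR mouse, which carried the reporter without floxed C-myc alleles, was 4 weeks old and gave 186 cells of the CD122+ and 174 of the CD122- population, in 2 libraries each.

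CD122 is the β chain that the receptors for IL-2 and IL-15 share, and IL-15 is needed for the natural CD8αα+ intraepithelial lymphocytes of the gut. Their thymic precursors are thymocytes with self-reactive receptors that survive a strong T cell receptor (TCR) signal, a route known as agonist selection, and the transcription factor Helios, encoded by Ikzf2, is a mark of such signals. Id3 is induced by TCR signals and blocks the E proteins, basic helix-loop-helix factors that hold thymocytes at immature stages. The question that the comparison addresses is which transcripts separate the cells on either side of the acquisition of CD122, before T-bet is switched on.

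The libraries differed in measures of quality, and so did the populations. Cells that passed per library numbered 31, 35, 28 and 26 among the CD122- cells and 34, 35, 31 and 22 among the CD122+ cells of libraries 1 to 4. The median of transcripts per cell lay between 5568 and 7147 in the CD122- cells and between 3299 and 6927 in the CD122+ cells, where library 4 was the lowest. A set of 18 genes that rises in low-quality cells, led by the predicted gene Gm10800 (GRCm38 chr2:98666547-98667301), took 38.8%, 60.3%, 45.8% and 63.7% of the summed transcripts in the CD122- cells and 29.5%, 28.2%, 26.6% and 58.4% in the CD122+ cells. The share was lower in the CD122+ cells of all 4 libraries, by 16.4 percentage points on average (exact paired permutation test, two-sided p = 0.125, the smallest that 4 pairs allow). Outside these 18 genes the median cell held 2126, 2215, 2441.5 and 1339.5 transcripts in the CD122- cells and 3481.5, 4069, 4487 and 1295.5 in the CD122+ cells. Library 4 therefore had the poorest cells by these measures on both sides of the gate. In libraries 1 to 3 the CD122- cells had the higher share and fewer other transcripts, as the plot of per-cell measures shows. Their medians of all transcripts were 6000, 5568 and 7147, against 6037, 4942 and 6927 in the CD122+ cells. In the TBGR mouse the CD122- cells also held fewer transcripts (medians 5108 and 5133 against 7081 and 7079). Whether quality or RNA content differed between the populations was not tested. The same barcodes were reused by design in libraries 1 and 3 and in libraries 2 and 4, with 96 shared in each pair and 0 between the others.

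**Figure D1:**
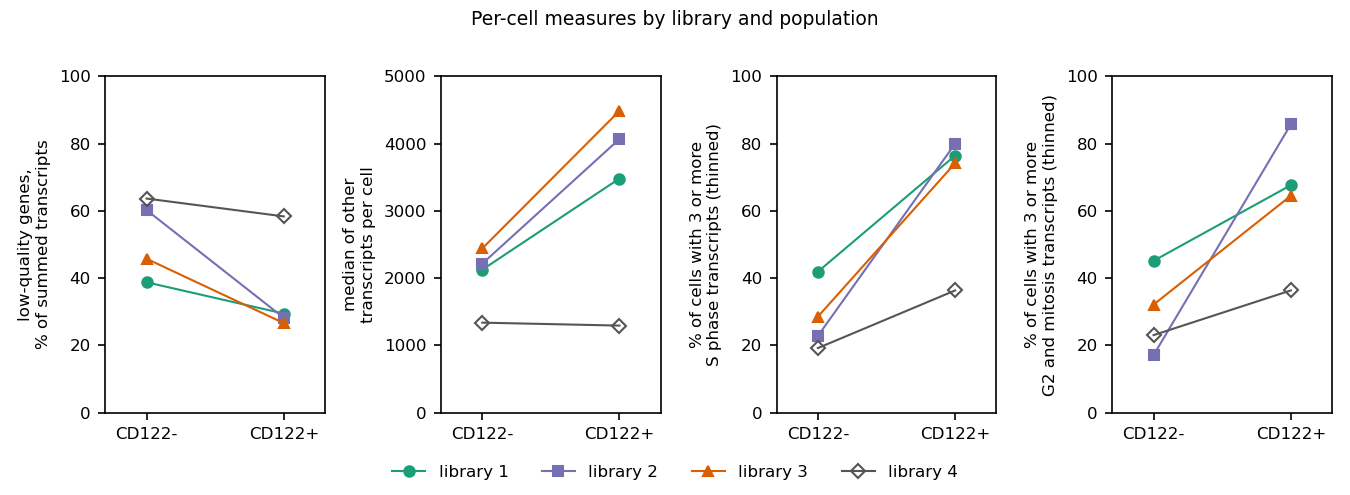
Per-cell measures in the CD122- and CD122+ cells of each library, from left to right the percentage of summed transcripts from the 18 low-quality genes, the median of other transcripts per cell, and the percentages of cells with 3 or more S and G2/M transcripts at 2000 transcripts per cell. Lines join the populations of 1 library, and library 4 (open diamonds) has the highest low-quality share of the CD122+ sums, 58.4%.

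The cells of a population were summed within each library, and 4390 genes were tested with edgeR's quasi-likelihood test with the library as a block. Levels are given in CPM, the transcripts of a gene relative to the TMM-scaled total of the tested genes, in the order of libraries 1 to 4. In such sums, fewer cells with a transcript and less RNA per cell cannot be told apart. At an adjusted p under 0.05 (Benjamini-Hochberg), 101 genes (2.3%) were higher and 159 (3.62%) lower in the CD122+ cells, 260 in all (5.92%), and the median log2 fold change of all genes was 0.00. The 2 directions differed in kind. Predicted gene models and unnamed clones made up 2 of the 101 higher genes and 78 of the 159 lower genes, against 268 of all 4390 tested, which left 99 higher and 81 lower genes of other kinds. Values did not overlap between the populations for 82 of the 101 and for 52 of the 159 genes, beside 364 (8.29%) of all genes. Counts of called or non-overlapping members of the lists below are to be read beside these shares of all genes.

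How many genes were called depended on the scaling and on library 3. With scaling by total counts, which raised the median log2 fold change of all genes to 0.48, 285 genes were higher and 45 lower, so that 86.4% of calls were higher instead of 38.8%. All 101 higher genes and 45 of the 159 lower genes were called under both scalings. Without library 4, 75 genes were higher and 139 lower, and 69 and 131 of these were called with it too. Without library 3 the counts were 29 and 25, and without library 1 they were 50 and 115. With the 18 low-quality genes left out and 2000 other transcripts required of each cell, 60 genes were higher and 48 lower, of which 59 and 48 were also called with all cells and 34 of the 48 were neither predicted models nor clones. All of the 18 low-quality genes except Gm10800 and Gm42418 were themselves among the lower calls. Examples are Gm10715 (-1.18 ± 0.24, adjusted p = 0.00274) and Kcnq1ot1 (-0.81 ± 0.21, adjusted p = 0.0185). Gm10800 had a log2 fold change of -1.04 ± 0.35 (adjusted p = 0.0863) and Gm42418 of 0.27 ± 0.22 (adjusted p = 0.622). The part of cell quality in the lower calls was not tested.

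**Figure D2:**
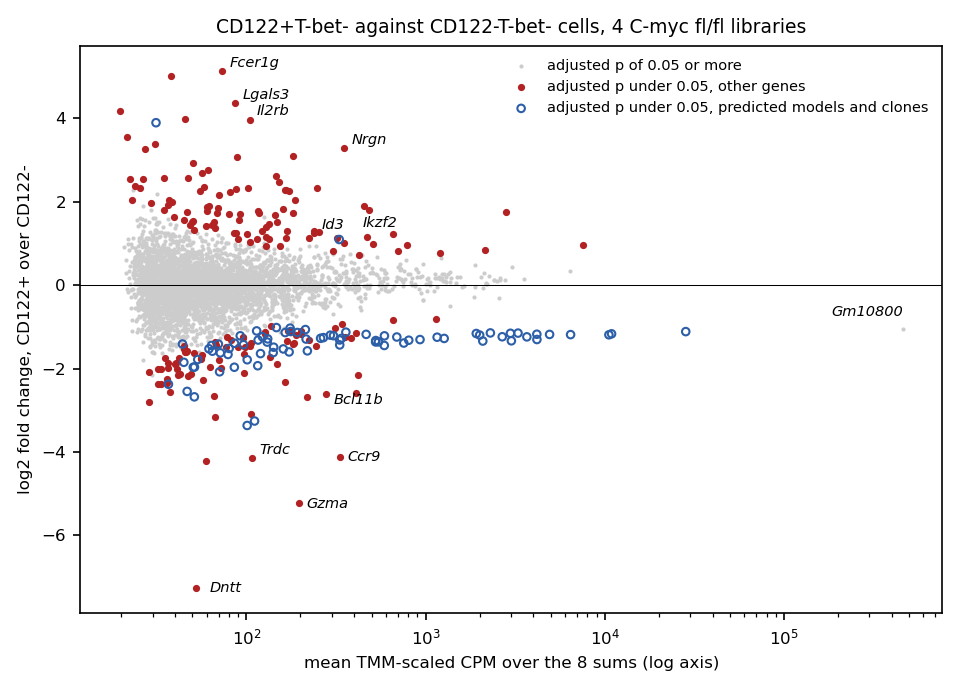
Log2 fold change of CD122+ over CD122- cells (vertical axis) against the mean level of each of the 4390 tested genes in TMM-scaled CPM (horizontal log axis). Red points are called genes, blue rings are called predicted models and clones, grey points are the other genes, and Gzma (-5.23) and Fcer1g (5.13) lie near opposite ends, while the place of Dntt depends on the prior count, as the CD122+ cells held 0 transcripts.

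The sort was checked first by the transcript of the sorted protein. Il2rb (GRCm38 chr15:78479256-78495271, minus strand), which encodes CD122, had 18.3, 14, 9.53 and 0 CPM in the CD122- cells and 211, 163, 191 and 227 CPM in the CD122+ cells. Every CD122+ value was above every CD122- value, and the log2 fold change was 3.97 ± 0.41 (error derived from the fit, adjusted p = 5.80e-07). With each cell thinned to 2000 transcripts, an Il2rb transcript was found in 30.3% of CD122+ cells (13.6% to 45.2% per library) and in 3.33% of CD122- cells (0% to 5.71%). Without thinning it was found in 73 of 122 CD122+ cells (27.3% to 77.4% per library) and in 7 of 120 CD122- cells. Without library 4 the log2 fold change was 3.74 (adjusted p = 9.70e-06). Tbx21, which encodes T-bet, was too low to test in these T-bet- cells, with 0 transcripts in the CD122- and 5 in the CD122+ cells.

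Of the other receptor chains and mediators of this cytokine family, few passed the test. The list of common γ-chain receptors and STAT5 genes had 10 tested members, of which 2 were higher, Il2rb and Pim1, and 1 was lower, Il2ra, with a median log2 fold change of 0.31. Il2rg, the common γ chain that pairs with CD122, had 265, 518, 234 and 282 CPM in the CD122- and 472, 368, 378 and 680 CPM in the CD122+ cells. Its values overlapped, and it did not pass (log2 fold change 0.53 ± 0.25, adjusted p = 0.288), but it did without library 2, whose CD122- value was the highest of that population (0.90, adjusted p = 0.00677), and under total-count scaling (1.02, adjusted p = 0.0339). Without library 1, 3 and 4 Il2rg stood at 0.44, 0.50 and 0.35 and did not pass (adjusted p = 0.653, 0.618 and 0.619). Il2ra, the α chain that makes the IL-2 receptor one of high affinity, was read at 64.0, 42.0, 81.0 and 10.8 CPM in the CD122- and at 0, 28.3, 14.4 and 15.1 CPM in the CD122+ cells. It was lower in 3 of 4 libraries and fell by 2.00 ± 0.59 on the log2 scale (adjusted p = 0.0428), a call lost under total-count scaling (adjusted p = 0.123). Pim1, a kinase gene that STAT5 induces, rose by 1.29 ± 0.29 (adjusted p = 0.00532), from 43.3 to 124 CPM in the CD122- to 90.6 to 245 CPM in the CD122+ cells. Its values overlapped, and its adjusted p was 0.0625 when library 1 was left out and 0.0728 when library 3 was. Il7r, Socs1, Jak1 and Stat5b had log2 fold changes of -0.47, 0.79, 0.08 and -0.75 and did not pass.

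Among the Id and E protein genes, Id3 was the 1 of 4 tested members that passed. Id3 (chr4:136143497-136145755, plus strand) had 169, 154, 95.3 and 152 CPM in the CD122- cells and 246, 474, 356 and 272 CPM in the CD122+ cells. All CD122+ values lay above all CD122- values, with a log2 fold change of 1.24 ± 0.27 (adjusted p = 0.00366), which was 1.34 without library 4 (adjusted p = 0.00638) and 1.01 without library 3 (adjusted p = 0.167). Id2, the family member known from mature innate-like T cells, was read at 45.7, 84.0, 76.3 and 43.3 CPM and at 200, 92.0, 79.2 and 106 CPM, and with overlapping values it did not pass (0.86 ± 0.36, adjusted p = 0.207) except under total-count scaling (1.33, adjusted p = 0.0270). Tcf12, which encodes the E protein HEB, had lower values in the CD122+ cells (69.1, 49.6, 57.6 and 45.3 CPM) than in the CD122- cells (165, 70.0, 105 and 152 CPM) without overlap, and just missed the threshold (-1.02 ± 0.32, adjusted p = 0.0557), which it passed without library 2 (-1.16, adjusted p = 0.0244). Without library 1, 3 and 4 Tcf12 did not pass (adjusted p = 0.319, 0.238 and 0.168).

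Of the Ikaros family, 2 of 5 tested members were higher. Ikzf2 (chr1:69531214-69687245, minus strand) had 334, 637, 143 and 130 CPM in the CD122- and 480, 634, 784 and 604 CPM in the CD122+ cells. It was higher in 3 of 4 libraries and level in library 2, whose CD122- cells had the highest value of that population. The log2 fold change was 1.15 ± 0.31 (adjusted p = 0.0204), and it did not pass without library 4 (0.93, adjusted p = 0.130) or without library 3 (0.74, adjusted p = 0.417). Helios transcripts were therefore present on both sides of the gate: at 2000 transcripts per cell they were found in 69.7% of CD122+ cells (40.9% to 83.9% per library) and in 29.2% of CD122- cells (15.4% to 40%). Ikzf3, which encodes Aiolos, a relative of Ikaros found in more mature lymphocytes, had 9.15, 7.0, 0 and 0 CPM in the CD122- and 53.7, 38.9, 46.8 and 60.4 CPM in the CD122+ cells. These values did not overlap, the log2 fold change was 3.28 ± 0.70 (adjusted p = 0.00345), and without library 4 it was 3.07 (adjusted p = 0.0117), while its transcripts were too few to be tested without library 1, 2 or 3. Ikzf3 was found in 3 of 120 CD122- and 29 of 122 CD122+ cells. It reached the limit of 40 transcripts for testing through the CD122+ cells, so its separation is partly built in. Ikzf1 (-0.55 ± 0.23) and Ikzf4 (-0.83 ± 0.44) did not pass.

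Genes of agonist selection were the next group. Of 15 tested members 5 were higher and 0 lower, beside 2.3% and 3.62% of all genes, with a median log2 fold change of 0.75. Pdcd1, which encodes the inhibitory receptor PD-1 and marks thymocytes after strong TCR signals, had 54.9, 42.0, 47.7 and 32.5 CPM in the CD122- and 123, 88.5, 201 and 136 CPM in the CD122+ cells. No values overlapped and the log2 fold change was 1.56 ± 0.33 (adjusted p = 0.00341). Nr4a1, which encodes Nur77, an immediate nuclear receptor of TCR signalling, had 59.5, 119, 76.3 and 75.8 CPM and 173, 191, 205 and 136 CPM, again without overlap (1.15 ± 0.29, adjusted p = 0.0123). Nr4a2 of the same family rose by 2.17 ± 0.45 (adjusted p = 0.00274), from 22.9, 35, 9.53 and 43.3 CPM to 53.7, 152, 198 and 45.3 CPM, with library 4 at almost the same level in both populations. Icos, an inducible co-stimulatory receptor gene, was spread more widely, with 50.3, 147, 57.2 and 0 CPM against 534, 181, 101 and 90.6 CPM (1.68 ± 0.42, adjusted p = 0.0137). The highest value, that of the CD122+ cells of library 1, carried much of this difference, which was 0.85 without library 1 (adjusted p = 0.450). Egr2 (1.13 ± 0.60), Tnfrsf9 (0.75 ± 0.57), Tox (0.02 ± 0.32) and Cd5 (-1.0 ± 0.37) were among the 10 members that did not pass. The 9 markers listed for agonist-selected PD-1+ IELPs, which include the gene of the sorted protein, held 782, 1309, 491 and 531 CPM in sum in the CD122- and 1420, 1929, 2170 and 1691 CPM in the CD122+ cells, and 6 of the 9 were higher (Il2rb, Ikzf2, Id3, Pdcd1, Nr4a1 and Nr4a2). Without library 4 the log2 fold changes of Pdcd1, Nr4a1, Nr4a2 and Icos were 1.5, 1.22, 2.53 and 1.54 (adjusted p at most 0.0363). Without library 3 none of the 4 passed, at log2 fold changes of 1.31 for Pdcd1 (adjusted p = 0.155), 1.04 for Nr4a1 (0.194), 1.38 for Nr4a2 (0.224) and 2.03 for Icos (0.113), and without library 1 Nr4a1 stood at 1.01 (0.139). With the low-quality genes left out 3 of 14 tested members of the agonist selection list were higher, and with cells thinned to 2000 transcripts 2 of 8 were higher and 1 lower. With cells thinned to 1000 other transcripts 0 of 6 were higher and 1 was lower, at a median of 0.12.

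Immediate early genes overlap with that response. Of 11 tested members of the AP-1 list, 3 were higher (Jund, Ier2 and Zfp36) and 0 lower, beside 2.3% and 3.62% of all genes. With the low-quality genes left out 0 of 9 were higher, and with cells thinned to 2000 transcripts 0 of 3 were. Ier2 had 9.15, 56.0, 28.6 and 21.7 CPM in the CD122- and 96.0, 92.0, 119 and 60.4 CPM in the CD122+ cells, with no overlap (1.79 ± 0.41, adjusted p = 0.00691). Jund (1.30 ± 0.34) and Zfp36 (1.45 ± 0.42), which encodes an RNA-binding protein that speeds the decay of cytokine transcripts, had overlapping values. Fos (-0.13), Jun (1.05) and Junb (0.71) did not pass. Without library 1 the adjusted p of Ier2, Jund and Zfp36 was 0.0970, 0.156 and 0.225, without library 3 it was 0.167, 0.336 and 0.513, and without library 4 that of Jund was 0.115.

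**Figure D3:**
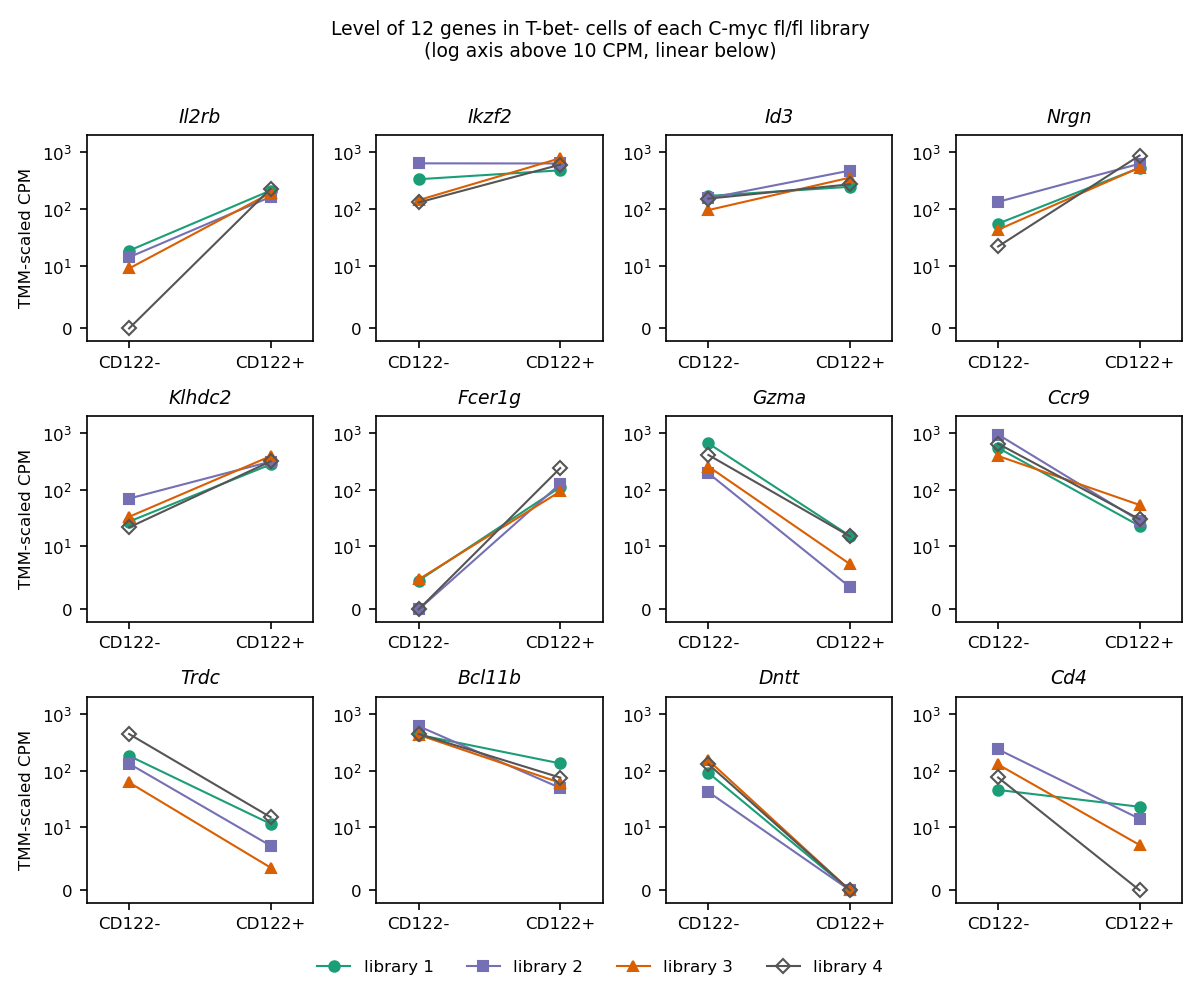
Level of 12 genes in TMM-scaled CPM (vertical axis, log above 10 CPM and linear below) in the CD122- and CD122+ cells of each library, with lines joining the populations of 1 library. Ikzf2 stands at 637 and 634 CPM in library 2, while Dntt is at 0 in the CD122+ cells of all 4 libraries.

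Among genes with at least 100 transcripts, Fcer1g and Lgals3 had larger rises than Il2rb. Fcer1g (chr1:171229572-171234365), which encodes a signalling chain with an activation motif shared by Fc and natural killer receptors, had 4.57, 0, 4.77 and 0 CPM in the CD122- and 111, 127, 93.5 and 242 CPM in the CD122+ cells (log2 fold change 5.13 ± 0.57, adjusted p = 1.33e-06). It was found in 2 of 120 CD122- cells and in 39 of 122 CD122+ cells. Its transcripts numbered 2 in the CD122- and 107 in the CD122+ cells. Fcer1g thus reached the limits on transcripts through the CD122+ cells, and its separation is partly built in. Fcer1g also stands among the markers of myeloid cells, a list whose summed level was 50.3 to 84.0 CPM in the CD122- and 133 to 272 CPM in the CD122+ cells, over the 12 of its 14 genes that the tables list. Csf1r, C1qa, C1qb and H2-Aa of that list had no transcript, while Cst3 was found in 18 of 120 CD122- and in 34 of 122 CD122+ cells. Nrgn (chr9:37544492-37552904), the gene of the calmodulin-binding protein neurogranin, had 54.9, 133, 42.9 and 21.7 CPM and 530, 627, 536 and 876 CPM, with a log2 fold change of 3.29 ± 0.31 (adjusted p = 1.59e-07). Klhdc2, which encodes a substrate receptor of a ubiquitin ligase, rose from 27.4, 70.0, 33.4 and 21.7 CPM to 280, 315, 392 and 317 CPM (3.09 ± 0.32, adjusted p = 5.79e-07). Both genes were lowest in the CD122- cells of library 4, and in no library did the populations come near each other. Lgals3, the gene of the carbohydrate-binding galectin-3, had 4.57, 21.0, 0 and 10.8 CPM and 311, 81.4, 140 and 121 CPM (4.37 ± 0.54, adjusted p = 5.46e-06), with library 1 above the rest of the CD122+ cells. With 5 and 151 transcripts, Lgals3 too reached the limits on transcripts through the CD122+ cells. Without library 4 the log2 fold changes of Fcer1g, Nrgn, Klhdc2 and Lgals3 were 4.78, 3.0, 3.0 and 4.57.

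Surface receptors and negative regulators were also in this set. Cd160, a receptor found on cytotoxic and intraepithelial lymphocytes, had 9.15, 28.0, 23.8 and 10.8 CPM in the CD122- and 130, 117, 212 and 181 CPM in the CD122+ cells (3.08 ± 0.39, adjusted p = 9.12e-06). It was 1 of 3 higher genes among 8 tested checkpoint and co-stimulatory receptors, with Pdcd1 and Icos, and none of these 8 was lower. Ubash3b, which encodes a phosphatase that dampens TCR signals, had 18.3, 70.0, 42.9 and 65.0 CPM and 253, 163, 345 and 257 CPM (2.48 ± 0.35, adjusted p = 3.10e-05). Neither gene overlapped between the populations. Ahnak, a large scaffold protein gene (2.36 ± 0.40), and Cldnd1, which encodes a membrane protein with a claudin domain (2.34 ± 0.36), were separated as well. S100a6, a gene of a small calcium-binding protein, rose by 2.61 ± 0.51 (adjusted p = 0.00168) with 530 CPM in the CD122+ cells of library 1 against 120 to 242 CPM in the others, and its adjusted p passed the threshold neither when library 1 was left out (0.0643) nor when library 3 was (0.0752). Of the list of markers of mature T-bet+ IELPs, Cd160 alone passed among 4 tested genes. The chemokine gene Xcl1 of that list reached 212 and 468 CPM in the CD122+ cells of libraries 3 and 4, but also 182 CPM in the CD122- cells of library 2 (1.63 ± 0.64, adjusted p = 0.170). Without library 2 Xcl1 passed at 4.01 (adjusted p = 3.08e-05), and under total-count scaling all 4 tested genes of the list were higher. Without library 1, 3 and 4 Xcl1 stood at 1.41, 1.15 and 0.92 and did not pass (adjusted p = 0.407, 0.711 and 0.610).

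On the other side of the gate stood genes of immature thymocytes. Of 11 tested genes of the coreceptors and of CD4+CD8+ thymocytes, 0 were higher and 6 were lower in the CD122+ cells, with a median log2 fold change of -2.15. Of all genes 2.3% were higher and 3.62% lower. Ccr9 (chr9:123678439-123784330), the receptor for a chemokine of thymus and small intestine, had 549, 945, 396 and 650 CPM in the CD122- and 23, 28.3, 54.0 and 30.2 CPM in the CD122+ cells. It fell by 4.11 ± 0.32 on the log2 scale (adjusted p = 5.10e-09), and at 2000 transcripts per cell it was found in 38.3% of CD122- cells (30.8% to 48.6% per library) and in 4.92% of CD122+ cells (2.86% to 9.68%). Cd4 had 45.7, 238, 129 and 75.8 CPM in the CD122- and 23, 14.2, 7.20 and 0 CPM in the CD122+ cells (-3.16 ± 0.49, adjusted p = 1.17e-04), although cells with the CD4 protein had been depleted before the sort. Its transcript was seen in 41 of 120 CD122- cells and in 12 of 122 CD122+ cells, without thinning. Cd8a stayed too low to test, with 6 and 8 transcripts.

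Dntt (chr19:41029275-41059525), which encodes terminal transferase, an enzyme that adds bases to rearranging receptor genes, was not found in the CD122+ cells. It had 91.5, 42.0, 153 and 130 CPM in the CD122- cells and 0 in the CD122+ cells of all 4 libraries, or 70 transcripts against none. Against the level of 3 transcripts over the CD122+ group, it was at least 31.2-fold lower (adjusted p = 2.91e-06). Arpp21, an RNA-binding protein gene of CD4+CD8+ thymocytes, had 119, 21.0, 138 and 173 CPM and 3.84, 7.08, 0 and 15.1 CPM (-4.21 ± 0.58, adjusted p = 2.79e-05). Cd24a, which encodes the heat-stable antigen of immature thymocytes, had 325, 133, 272 and 368 CPM and 38.4, 31.9, 79.2 and 60.4 CPM (-2.32 ± 0.30, adjusted p = 1.04e-05). For these 3 genes no values overlapped. The summed level of the 9 markers of CD4+CD8+ thymocytes was 371, 378, 515 and 639 CPM in the CD122- and 53.7, 42.5, 25.2 and 15.1 CPM in the CD122+ cells, and all 3 markers that could be tested were lower.

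Granzyme A and 2 of the 5 tested markers of γδ T cells were also lower in the CD122+ cells. Gzma (chr13:113093825-113100981), a protease of cytotoxic granules, had 659, 196, 257 and 412 CPM in the CD122- cells and 15.4, 3.54, 7.20 and 15.1 CPM in the CD122+ cells, and fell by 5.23 ± 0.37 on the log2 scale (adjusted p = 7.15e-10). Trdc (chr14:54142851-54148868), the constant region of the TCR δ chain, had 183, 133, 62.0 and 444 CPM and 11.5, 7.08, 3.60 and 15.1 CPM (-4.14 ± 0.41, adjusted p = 3.42e-07). Sox13, a transcription factor gene of the γδ lineage, had 329, 168, 42.9 and 238 CPM and 49.9, 7.08, 14.4 and 0 CPM (-3.09 ± 0.42, adjusted p = 1.89e-05). Gzma and Trdc did not overlap, while for Sox13 the CD122+ cells of library 1 stood just above the CD122- cells of library 3. Gzma (264 and 8 transcripts) and Trdc (113 and 7) reached the limit for testing through the CD122- cells, so their separation is partly built in. Without library 4 the log2 fold changes of the 3 genes were -5.31, -3.99 and -2.87. Tcrg-C1, a constant region of the γ chain, was level (444, 203, 81.0 and 282 CPM against 411, 205, 86.4 and 302 CPM, 0.01 ± 0.24), so that 2 of 5 tested γδ markers were lower and 0 were higher. The summed level of the γδ markers was 215 to 1148 CPM in the CD122- and 176 to 649 CPM in the CD122+ cells, over the 7 of 10 markers that the tables list.

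The same CD122- cells tended to hold these transcripts together. Gzma was found in 25 of 120 CD122- cells, 8, 5, 5 and 7 in libraries 1 to 4. Trdc was found in 18 of these 25 cells and in 11 of the other 95, Sox13 in 16 and in 10, and Dntt in 14 and in 5. Cd4 went the other way, with 1 of the 25 and 40 of the 95 cells. Ccr9 was found in 13 of the 25 and 48 of the 95 cells, a like share. The cells with Gzma held a median of 5566 transcripts outside the low-quality genes and the others 1917, so that each transcript was also easier to find in them, except in library 2 (1603 and 2252.5), where Trdc was found in 2 of 5 cells with Gzma and in 3 of the other 30. No transcript of Gzma, Trdc, Sox13, Dntt or Arpp21 was seen in 72 of 120 CD122- and in 102 of 122 CD122+ cells. These counts are a description of the cells, and the part of depth in them was not tested.

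The TCR β chain was found alike on both sides of the gate. Trbc1, the β chain constant region on which the sort relied, was found in 110 of 120 CD122- and in 115 of 122 CD122+ cells, and Cd3g stood at 424 to 637 CPM and 361 to 495 CPM (-0.30 ± 0.22, adjusted p = 0.575). Of 17 tested genes of CD3 and TCR signalling, 1 was higher (Fcer1g) and 1 lower. The lower gene was Lat, the adaptor that couples the TCR to its downstream kinases, with 453, 553, 334 and 347 CPM in the CD122- and 269, 205, 180 and 166 CPM in the CD122+ cells (-1.03 ± 0.23, adjusted p = 0.00527). Its values did not overlap, and its adjusted p was 0.0949 without library 3 and 0.269 under total-count scaling. Cd79a, Csf1r and C1qa had no transcript in either population and Epcam had 0 and 3. Other markers of B cells, myeloid cells and thymic stroma were found, without thinning. Ighm was seen in 28 of 120 CD122- and 35 of 122 CD122+ cells, Cst3 in 18 and 34, and Psmb11 in 40 and 21. The 11 B cell markers summed to 59.5 to 140.0 CPM in the CD122- and 67.3 to 211 CPM in the CD122+ cells, and the 8 listed markers of thymic stroma to 77.8 to 325 and 36.0 to 166 CPM. Only 1 gene of each of these 2 lists could be tested, and neither passed, so the test says little about the lists. Erythroid cells could not be judged, as 2 of their 6 markers are listed. Foxp3, which defines regulatory T cells, was read 8 and 19 times, and the 7 markers of that type summed to 305 to 931 and 518 to 939 CPM, with Ikzf2 higher and Il2ra lower among them. The low counts of Zbtb16, the transcription factor of NKT cells, were 4 transcripts in the CD122- and 30 in the CD122+ cells, under the limit for testing, and of the NKT cell list Gzma alone passed.

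Transcription factors of T cell identity were lower in the CD122+ cells more often than higher: 5 of 15 tested members fell and 1 rose, with a median log2 fold change of -0.51. Of all genes 3.62% were lower and 2.3% higher. Satb1, 1 of the 5, is also counted in the list of coreceptors and CD4+CD8+ thymocyte genes. Bcl11b, which locks precursors into the T lineage, had 430, 609, 429 and 444 CPM in the CD122- and 134, 49.6, 61.2 and 75.5 CPM in the CD122+ cells, with a fall of 2.61 ± 0.29 on the log2 scale (adjusted p = 1.37e-06). Satb1, a chromatin organizer of thymocytes, had 297, 987, 853 and 607 CPM and 184, 77.9, 155 and 181 CPM (-2.15 ± 0.32, adjusted p = 8.86e-05). Tcf7, which encodes TCF-1, had 595, 553, 458 and 542 CPM and 200, 248, 169 and 317 CPM (-1.26 ± 0.22, adjusted p = 6.36e-04). None of these 3 genes overlapped between populations. Gata3 (-1.89 ± 0.35) and Foxp1 (-1.11 ± 0.29, adjusted p = 0.0173) were the other 2 that fell, and Lef1, the partner of TCF-1, stood at 224 to 358 CPM and 136 to 333 CPM and did not pass (-0.15 ± 0.25). Klf2, a factor of quiescence and thymic exit, was the 1 that rose, from 45.7, 161, 57.2 and 32.5 CPM to 196, 237, 191 and 151 CPM with a slight overlap (1.47 ± 0.31, adjusted p = 0.00324). Without library 3 the log2 fold changes were close to these but did not pass, at -1.19 for Tcf7 (adjusted p = 0.0580), -1.2 for Foxp1 (0.128) and 1.4 for Klf2 (0.110). The same held without library 1 for Klf2 (1.28, 0.0577) and Foxp1 (-1.14, 0.0926), and without library 2 for Foxp1 (-0.86, 0.0729). The falls of Tcf7 and Foxp1 did not pass under total-count scaling (adjusted p = 0.118 and 0.274).

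Surface molecules of thymocytes completed the lower side. Thy1, a membrane glycoprotein of T cells, had 787, 371, 515 and 1051 CPM in the CD122- and 353, 56.6, 18 and 136 CPM in the CD122+ cells (-2.58 ± 0.35, adjusted p = 1.89e-05). Itm2a, a membrane protein gene that is induced during thymocyte selection, had 101, 637, 524 and 282 CPM and 26.9, 85.0, 97.1 and 0 CPM (-2.69 ± 0.32, adjusted p = 3.77e-06). Neither overlapped. Among 13 tested genes of thymic exit and homing, 2 were lower, Ccr9 among them, and 2 higher, Klf2 and Cd52. The call of Cd52 (0.99 ± 0.29, adjusted p = 0.0442) was among the least firm: its adjusted p was 0.469, 0.238 and 0.175 without library 1, 3 and 4, and its log2 fold change was -0.082 when cells were thinned to 1000 transcripts outside the low-quality genes.

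**Figure D4:**
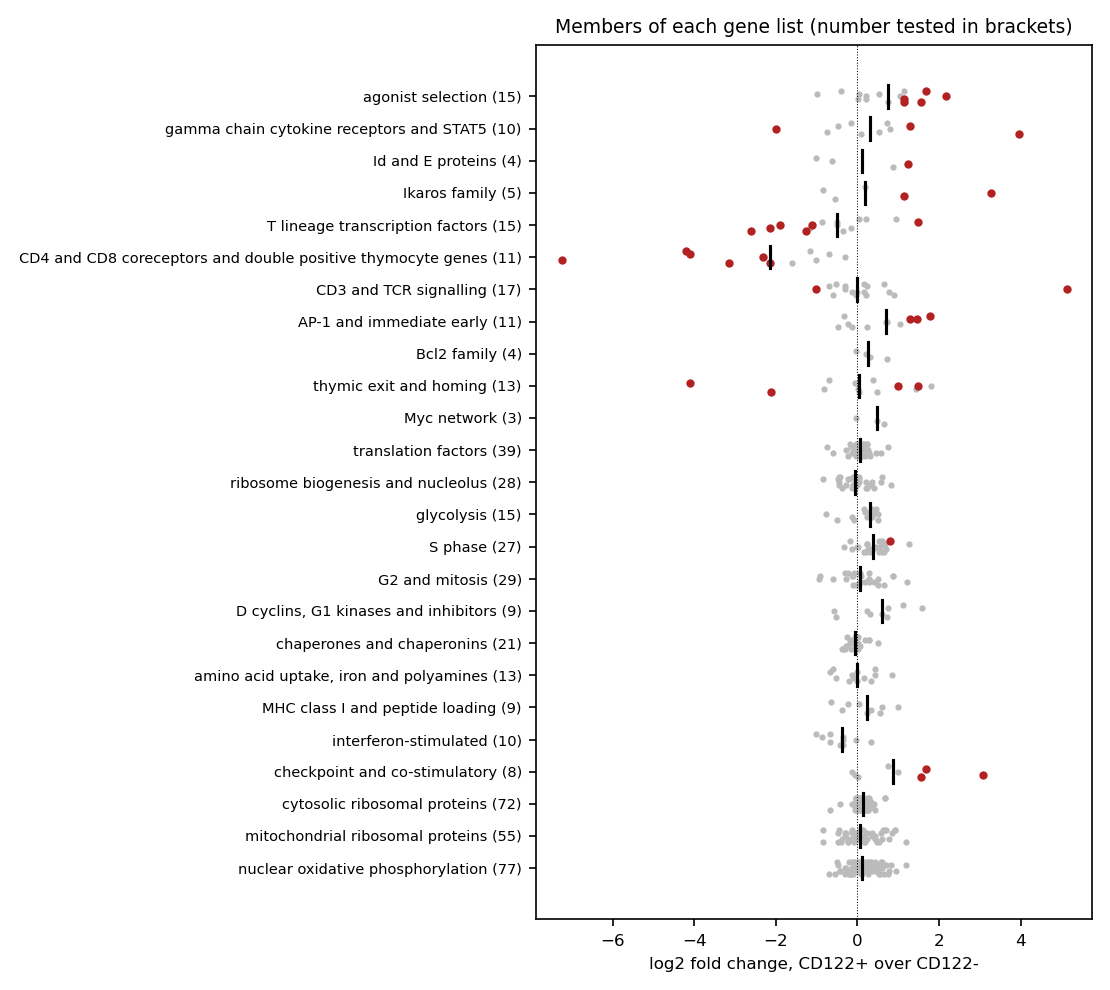
Log2 fold change of CD122+ over CD122- cells (horizontal axis) for the tested members of 25 gene lists, whose number stands in brackets, with a black bar at the median of each list. Red points are genes with an adjusted p under 0.05, such as the 6 lower members of the list of coreceptors and CD4+CD8+ thymocyte genes and none of the 72 cytosolic ribosomal protein genes.

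Cycling was read per cell and per gene. At 2000 transcripts per cell, 3 or more S phase transcripts were found in 41.9%, 22.9%, 28.6% and 19.2% of the CD122- cells and in 76.5%, 80.0%, 74.2% and 36.4% of the CD122+ cells. The same was true of G2/M transcripts in 45.2%, 17.1%, 32.1% and 23.1% of the CD122- and in 67.6%, 85.7%, 64.5% and 36.4% of the CD122+ cells. Both shares were higher in the CD122+ cells of all 4 libraries, by 38.6 and 34.2 percentage points on average (exact paired permutation test, two-sided p = 0.125 each, adjusted over 16 measures 0.250). Without library 4 the differences were 45.8 and 41.1 points, and without thinning they were 29.4 and 27.1 points. Because low-quality genes take a larger part of the CD122- cells, the cells were also thinned to 1000 transcripts of the other genes, where the differences were 38.5 and 29.0 points. The share of cells cycling is not read from these calls alone.

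In the sums, few cycle genes passed. Of 27 tested S phase genes 1 was higher, and of 29 G2/M genes 0 were higher or lower, with median log2 fold changes of 0.39 and 0.06. The G2/M median depended on library 4 and on the treatment of low-quality genes: it was 0.49 without library 4, 0.61 with cells thinned to 2000 transcripts and -0.13 with the low-quality genes left out. The S phase gene was Mcm6, a subunit of the replicative helicase, with 242, 154, 310 and 184 CPM in the CD122- and 380, 435, 414 and 317 CPM in the CD122+ cells (0.81 ± 0.24, adjusted p = 0.0436). These values did not overlap, but the adjusted p was 0.122, 0.0915, 0.153 and 0.0786 without library 1, 2, 3 and 4. Cdk1, the kinase that drives mitosis, stood at 174, 14, 90.6 and 358 CPM and at 242, 205, 137 and 75.5 CPM (0.49 ± 0.42, adjusted p = 0.653), and Top2a at 499, 49.0, 281 and 563 CPM and at 376, 442, 331 and 272 CPM (0.28 ± 0.36). Library 2 was low and library 4 high among the CD122- cells for both genes, and in library 4 the order of the populations was the opposite of that in library 2. Cdk4 (0.30 ± 0.21) and Ccnd2 (0.72 ± 0.24, adjusted p = 0.0759) did not pass, and of 9 tested D cyclins, G1 kinases and inhibitors 0 did. Ccnd2 passed without library 4 (0.86, adjusted p = 0.0461), without library 2 (0.99, adjusted p = 0.00612) and under total-count scaling (1.2, adjusted p = 0.0116), where 2 of the 9 were higher. It did not pass without library 1 (0.51, adjusted p = 0.487) or without library 3 (0.58, adjusted p = 0.483).

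Myc and the lists of translation, ribosome, energy metabolism and chaperone genes did not separate the populations in the sums at this depth. Myc itself had 59.5, 21.0, 66.7 and 43.3 CPM in the CD122- and 61.4, 99.1, 108 and 15.1 CPM in the CD122+ cells, with overlap (0.64 ± 0.39, adjusted p = 0.468). Of 39 translation factors, 28 ribosome biogenesis genes, 72 cytosolic and 55 mitochondrial ribosomal protein genes, 15 glycolysis genes, 77 nuclear genes of oxidative phosphorylation and 21 chaperones, 0 passed, and the medians of these lists lay between -0.06 and 0.31. Under total-count scaling 1 of the translation factors, 1 of the glycolysis genes, 3 of the cytosolic ribosomal protein genes and 4 of the oxidative phosphorylation genes were higher. Eif5a, a translation factor, stood at 714 to 1571 CPM and at 1057 to 1489 CPM (0.10 ± 0.21), Eef1b2 at 964 to 1311 CPM and 1087 to 1562 CPM (0.19 ± 0.19), and Ldha, which makes lactate, at 609 to 932 CPM and 988 to 1329 CPM (0.51 ± 0.19, adjusted p = 0.146). Ldha was higher in every library without passing, except under total-count scaling (0.98, adjusted p = 0.0240), while Pkm (0.17 ± 0.20) overlapped. With cells thinned to 1000 other transcripts, Eif5a was found in 60.9% of CD122- and 81.4% of CD122+ cells and Eef1b2 in 70.9% and 92.9%. Ldha was found in 54.5% and 70.8% and Pkm in 57.3% and 62.8%, and these shares were not tested. Bcl2, a survival gene downstream of IL-15, did not pass either (124, 441, 153 and 75.8 CPM against 311, 195, 475 and 227 CPM, 0.73 ± 0.35, adjusted p = 0.303), although it passed without library 2 (1.51, adjusted p = 4.50e-04) and under total-count scaling (1.24, adjusted p = 0.0269). Without library 1, 3 and 4 Bcl2 stood at 0.52, 0.39 and 0.60 and did not pass (adjusted p = 0.722, 0.837 and 0.531). No other of the 4 tested Bcl2 family genes, the 3 of the Myc network, the 13 of amino acid uptake, the 9 of MHC class I or the 10 interferon-stimulated genes passed. When 200 of the 4390 genes were changed in simulated sums of this size, 1.73% of 2-fold changes and 83.3% of 4-fold changes were called. The spread of these sums was estimated without the population in the model. It therefore took in real differences between the populations, and the rates may be too low. In the data, 91 of the 101 higher and 155 of the 159 lower calls were past 2-fold.

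The same comparison was set beside that of the older TBGR mouse. The difference between the mice was tested for all 4390 genes in 1 fit, and 6 (0.137%) passed. In the TBGR mouse Il2rb, Ikzf2 and Id3 had log2 fold changes of 4.89, 1.68 and 1.62, Gzma -5.29, Ccr9 -4.53, Cd4 -3.55 and Bcl11b -2.03, and for none of these 7 genes did the difference from the C-myc fl/fl libraries pass (smallest adjusted p 0.762). This is not agreement, as 1% of 2-fold and 74% of 4-fold differences between the mice were called in simulated sums. Cd24a, Nrgn and Cdk1 stood at -0.33, 1.32 and 4.09 there (differences -1.96, 1.96 and -3.58, adjusted p = 0.109, 0.121 and 0.284). Il2rg (-0.49) and Bcl2 (-0.18) had the opposite sign there, and their differences did not pass (adjusted p = 0.342 and 0.702). Trdc did differ: its log2 fold change was -4.17 here and -0.70 in the TBGR mouse, where it stood at 61.3 and 117 CPM in the CD122- and at 42.5 and 66.8 CPM in the CD122+ libraries (difference -3.47 ± 0.59, adjusted p = 0.0143). Nr4a1 rose here (1.18 in this fit) and had -0.73 in the TBGR mouse, whose CD122- libraries held 415 and 485 CPM and whose CD122+ libraries held 207 and 336 CPM (difference 1.91 ± 0.37, adjusted p = 0.0472). In the TBGR mouse the order of the populations was thus the opposite, without overlap.

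The other 4 genes were named after their values had been seen. Mki67 and Cenpe, genes of dividing cells, had 0.55 and 0.10 here and 4.59 and 6.02 in the TBGR mouse (differences -4.04 ± 0.76 and -5.93 ± 0.98, adjusted p = 0.0392 and 0.0138). In the TBGR mouse Mki67 stood at 13.4 and 6.50 CPM in the CD122- and at 284 and 219 CPM in the CD122+ libraries. Here it stood at 252, 56.0, 257 and 412 CPM and at 430, 389, 263 and 136 CPM, with overlap between the populations. Gimap4, a GTPase gene of mature T cells, had 1.46 here and -1.85 there, and Itga4, an integrin chain, -0.80 and 1.61 (differences 3.31 ± 0.51 and -2.41 ± 0.36, adjusted p = 0.00954 each). Each library of the TBGR mouse held 1 population, and the mice differ in age, genotype and plate, which cannot be told apart. The number of such genes was 0 when library 1 or 3 was left out, 99 when library 2 was and 2 when library 4 was, and it fell to 3 when the first CD122+ library of the TBGR mouse was left out.

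**Figure D5:**
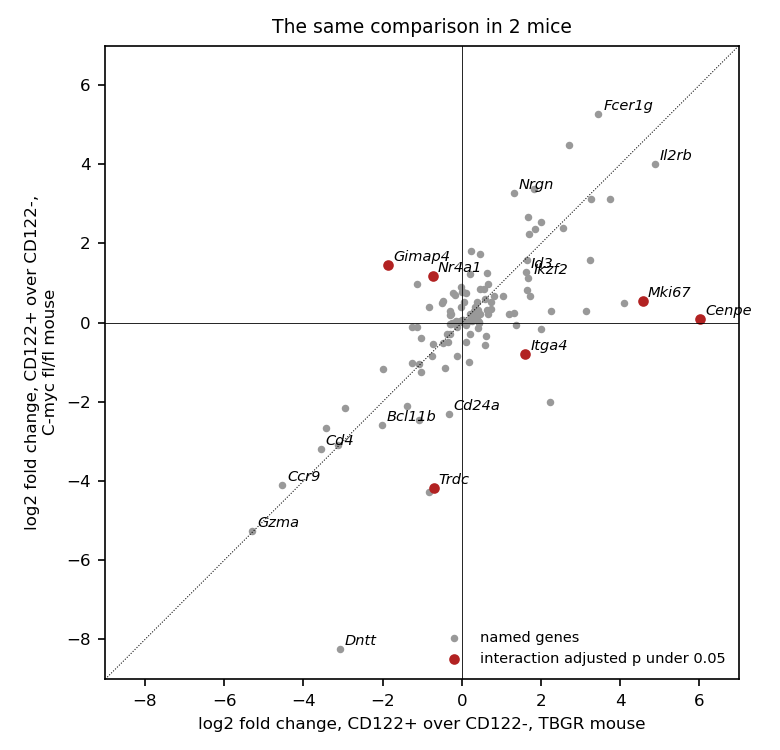
Log2 fold change of CD122+ over CD122- cells in the C-myc fl/fl libraries (vertical axis) against that in the TBGR mouse (horizontal axis) for the named genes, with a dotted line of equality. Red points are the 6 genes whose difference between the mice passed, and the place of Dntt on the vertical axis depends on the prior count, as the CD122+ cells held 0 transcripts.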

How the data were processed

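Cells of the 4 C-myc fl/fl libraries of T-bet- IELPs were read by CEL-Seq2. The authors demultiplexed the reads with bcl2fastq 2.17.1.14, aligned them with BWA 0.6.2-r126 to transcripts of GENCODE VM9 (loci that overlap were merged, reads that map to several places were dropped, and reads in the sense direction were counted), collapsed molecular identifiers of 6 bases and deposited expected counts, the estimated number of transcripts per gene and cell without normalization. Rounded to whole transcripts, the values were used without spike-ins, mitochondrial genes and the 96 barcodes per table that had no cell (6164 transcripts over the 4 tables), and cells with at least 2000 transcripts were kept. The limit of 2% on Kcnq1ot1 that the study used was tried as an alternative. As single cells were sorted into wells, doublets were not searched for.

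Transcripts were summed per library and population into 8 sums of 94268 to 224831 transcripts. Genes with at least 40 transcripts over the sums were tested with edgeR 4.0.16 (glmQLFit and glmQLFTest, TMM scaling, library as a block, Benjamini-Hochberg adjustment over all 4390 genes) in R 4.3.3. The limit of 40 is on the total, so a gene found almost only in a single population was tested through that population. The separation of such genes, among them Ikzf3, Fcer1g, Lgals3, Dntt, Gzma and Trdc, is therefore partly built in. The block was used because both populations of a library were pooled, amplified and sequenced together. The study compared single cells with each other, which was not followed. DESeq2 1.42.0 was an alternative, with other scalings, filters, limits on cells, thinning and each library left out. Alternatives on the low-quality genes were added after the data had been seen. These are the 18 genes whose share of a cell's transcripts correlated above 0.65 with that of Kcnq1ot1, Gm10715, Gm42418 or Gm10800, the markers the study names. Errors of log2 fold changes are the absolute log2 fold change divided by the square root of its F value in the edgeR fit. That fit shares information on the spread between genes. The errors are therefore not standard errors over the 4 libraries, whose own values can be spread more widely. Single values per library were compared by exact paired permutation tests over 4 libraries. The precision of sums and shares given covers counting error only. The fit was tested on simulated data, where 1 of 4390 genes was called when no gene had been changed.

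The genes, gene lists and comparisons were chosen with earlier results of these data known. The named genes are 23 fixed names, the 10 genes with the largest called change in each direction (the same direction in 4 libraries, at least 100 transcripts, no predicted models), and of each list the 3 most abundant members and the member with the smallest p. Pim1, Klf2, Gata3, Foxp1, Lat, Zfp36, Gimap4, Itga4, Cenpe, Mki67, the genes of the last group of observations and further list members given with their values fall outside this rule and were chosen after their values were seen. Some items that the rule or the lists hold are not reported here. Coordinates are those of GENCODE vM21 on GRCm38, the build of the annotation the authors used.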

Additional observations from a re-analysis of the deposited data

Results flagged for a closer look

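In several groups of 4 libraries 1 value stood apart from the other 3 by Dixon's criterion, which chance meets in about 1 in 20 groups. The CD122+ cells of library 4 stood apart in Gm10800 (699225 CPM, or 49.1% of summed transcripts), Gm10715 (6191 CPM), Kcnq1ot1 (1676 CPM), Lck (513 CPM) and Ikzf4 (151 CPM). Among the CD122- cells, library 2 stood apart in Il2rg (518 CPM), Bcl11b (609 CPM), Jund (350 CPM), Xcl1 (182 CPM) and Npm1 (826 CPM, the lowest of 4), library 1 in Lef1 (224 CPM, the lowest) and Ndufa1 (110 CPM), and library 4 in Eef1b2 (964 CPM, the lowest).

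The difference between the populations was not the same in both mice for 6 genes, with a log2 difference of 3.31 for Gimap4, 1.91 for Nr4a1, -2.41 for Itga4, -3.47 for Trdc, -4.04 for Mki67 and -5.93 for Cenpe. Age, genotype and plate differ between the mice, and their part in this was not tested.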

How the results depend on the processing

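The number of higher and lower genes (101 and 159) was 46 and 80 with DESeq2, 285 and 45 with total-count scaling, 63 and 68 with no replicate block and 44 and 86 with cells thinned to 2000 transcripts (1322 genes tested). With filterByExpr 66 genes were higher. Leaving out 1 library gave 29 to 109 higher and 25 to 139 lower genes. Of the alternatives chosen after seeing the data, leaving out the low-quality genes with 2000 other transcripts per cell gave 60 and 48, the same without library 4 gave 26 and 17, cells with at most 50% of low-quality genes gave 60 and 33, and cells thinned to 1000 other transcripts gave 26 and 81 (949 genes tested). The numbers under RLE scaling, no filter and the other limits on cells stayed within 1.5 times of those reported. The cause of these shifts was not tested, except that fewer genes reach the limit of 40 transcripts where cells, transcripts or libraries are left out.

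Of the 43 called genes followed across the settings, 42 kept their call under RLE scaling, 37 under total-count scaling, 33 with no replicate block, 28 of the 41 with an adjusted p under DESeq2, 21 of 40 without library 3, 39 without library 4, and 31 of 41 without the low-quality genes. The fold change of Cd52 turned to -0.082 with cells thinned to 1000 other transcripts, and those of Gm10715 and Kcnq1ot1 to 0.069 and 0.16 in cells with at most 50% of low-quality genes. The difference in the median of transcripts per cell, -780, was 178 with at least 3000 transcripts per cell. The genes that differed between the mice (6) numbered 12 with total-count scaling, 50 without a filter on low counts, 0 to 99 when 1 library was left out and 3 without the first TBGR CD122+ library. The library was a block by design. In 4 pairs no single value can pass a threshold of 0.05. Most 2-fold changes were missed in simulated sums, whose spread was estimated without the population in the model and may be too large.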

Other observations

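Other genes outside the lists also separated the populations, chosen here after their values were seen. All 4 tested S100a genes were called higher in the CD122+ cells (S100a4, S100a6, S100a10 and S100a11), beside 101 (2.3%) of all 4390 genes. They encode calcium-binding proteins of activated and effector lymphocytes. S100a4 overlapped, with 0, 21.0, 33.4 and 0 CPM in the CD122- and 242, 17.7, 89.9 and 45.3 CPM in the CD122+ cells, and was lower in library 2. S100a6 did not pass without library 1 or without library 3. S100a10 had 73.2, 84.0, 95.3 and 75.8 CPM in the CD122- and 487, 467, 392 and 302 CPM in the CD122+ cells (log2 fold change 2.33 ± 0.26, adjusted p = 1.49e-06), the steadiest of them across libraries. All 4 tested actin and thymosin genes were higher too, with Tmsb4x at 1281, 2520, 982 and 748 CPM and at 4725, 3897, 4066 and 4394 CPM (1.76 ± 0.25). Vim, which encodes the filament protein vimentin, had 169, 315, 162 and 141 CPM and 810, 860, 741 and 438 CPM (1.90 ± 0.23). Srgn, the core protein of secretory granules, had 197, 280, 195 and 195 CPM and 990, 669, 835 and 498 CPM (1.80 ± 0.24). Galectins did not move as a family, with Lgals1 and Lgals3 higher and Lgals9 lower, and of 3 annexins Anxa2 alone was called.

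Receptor and signalling genes stood on both sides. Nt5e, which encodes the ectoenzyme CD73, had 0, 7.0, 9.53 and 0 CPM in the CD122- and 61.4, 99.1, 79.2 and 106 CPM in the CD122+ cells (3.99 ± 0.60, adjusted p = 9.53e-05). Spry2, a feedback inhibitor of receptor kinases, was read 1 time in the CD122- and 39 times in the CD122+ cells (4.18 ± 0.87), and Tnni1, a troponin gene, 1 and 62 times (5.02 ± 0.76). Nt5e was read 3 and 73 times. These genes reached the limit of 40 transcripts for testing through the CD122+ cells and were chosen after their values were seen. Their separation is therefore partly built in. Lower in the CD122+ cells were Hes1, a target of Notch (-2.56 ± 0.55), Myb, a factor of proliferating precursors (-1.79 ± 0.40), Smo, the transducer of Hedgehog signals (-2.24 ± 0.54), and Fcgr2b, an inhibitory Fc receptor gene (-2.27 ± 0.42). For Fcgr2b the CD122- values of 64.0, 98.0, 66.7 and 152 CPM stayed above all CD122+ values of 11.5, 24.8, 10.8 and 30.2 CPM.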
